A study of Mus musculus with 54 samples.

Results

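The genes described here encode securin (Pttg1), separase (Espl1), the cohesin subunits Rad21, Smc1a, Smc3, Stag1 and Stag2, and the cohesin regulators Wapl, Pds5a and Pds5b. These 10 genes, of 19653 listed in any table, were chosen by name as one pathway, and the set was selected on a pattern already seen in these data: Pttg1 was lower in wildtype at 48 h than at 24 h of differentiation, and not in the other lines. That change of Pttg1 is therefore given as a description. The cells were H2K mouse myogenic progenitors, muscle precursor cells grown with γ-interferon and switched to low-serum medium to differentiate. 6 lines were compared: wildtype; EMD-/y, which lacks emerin, an X-linked protein of the inner nuclear membrane; and 4 lines made from EMD-/y by lentiviral transduction of wildtype emerin (+EMD) or of the emerin mutants S54F, Δ95–99 or Q133H, which cause Emery–Dreifuss muscular dystrophy. The 4 transduced lines share the EMD-/y deletion, were selected with puromycin, and are each a single stable line. The mutant lines were kept in puromycin during differentiation and seeded at 297000 cells per well, against 232000 for wildtype and EMD-/y, so that in their comparisons with wildtype the line, seeding and drug cannot be told apart. The seeding of +EMD and its drug during differentiation are not given in the sources used here. RNA was sequenced at 0, 24 and 48 h, giving 18 groups of 3 labelled replicates, 54 samples in all.

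The values were the authors' mean normalised read count of each group, 1 number per group and table, in 15 tables of a line against wildtype at the same hour and 12 between consecutive hours of a line. No spread between replicates could be computed from them, so no test was run and no difference below has a replicate check. Ratios were taken within a table. A gene was counted as past 2-fold when its log2 ratio was at least 1 in size and its higher mean was at least 10, and the members' count was read beside the share of all genes past 2-fold in the same table. The sum of the means was 16719491 to 21128040 normalised counts per group. The Emd transcript had means of 987 to 1962 in wildtype and of 0.141 to 3.52 in the other lines, +EMD included. Whether reads from the transduced emerin could be counted under this mouse gene is not given in the sources used here. By western blot on proliferating cells, the paper reports emerin protein in each transduced line and none in EMD-/y. Over the 18 groups the lowest and highest levels of the myogenic markers were 6008 and 25092 for Myod1, 9237 and 67689 for Des, 3311 and 54005 for Myog, 2094 and 300006 for Myh3, 657 and 56313 for Tnnt3, 146 and 1439 for Myf5, 30.7 and 9462 for Ckm, and 3.11 and 2122 for Pax7. Counts of these 8 past 2-fold lower than wildtype are given with their median log2 ratio and the share of all genes past 2-fold lower. In Q133H 7 were at 24 h (−4.08, 14.9%) and 6 at 48 h (−2.13, 15.6%). In Δ95–99 5 were at 24 h (−1.60, 12.3%) and 3 at 48 h (−0.56, 9.1%). In +EMD 3 were at 24 h (−0.34, 10.9%) and 1 at 48 h (−0.24, 7.81%). In S54F 1 was at 24 h (6.69%) and 0 at 48 h (5.03%), and in EMD-/y 0 at either hour (2.89% and 2.96%). Past 2-fold higher at both hours were Pax7 in EMD-/y, Myf5 and Pax7 in +EMD and Δ95–99, and Myf5 in Q133H. In S54F Pax7 was higher at 24 h, and Myf5 and Pax7 at 48 h. All genes past 2-fold higher made up 4.79% and 5.02% in EMD-/y, 9.2% and 10.9% in +EMD and 5.84% and 6.1% in S54F. In Δ95–99 they were 9.05% and 13.4%, and in Q133H 9.7% and 18.2%. The part of the myogenic markers in the differences between lines described below was not tested. Among markers of other cell types Ptprc, Adipoq, Plin1, Krt5 and Epcam stayed under 8 (highest 1.90, 0.546, 0.175, 4.39 and 7.66), Pecam1 and Cdh5 reached 12.6 and 10.9, and Pdgfra and Cd68 reached 68.2 and 109.

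Cohesin is a ring that holds sister chromatids together from replication until anaphase and also shapes chromatin loops in cells that no longer divide. Smc1a, Smc3 and the kleisin Rad21 form the ring, Stag1 or Stag2 joins it as an alternative subunit, Pds5a and Pds5b bind it, and Wapl releases it from chromatin. Securin holds the protease separase inactive until the anaphase-promoting complex marks securin for destruction, after which separase cuts Rad21 and the chromatids part. Securin and separase are produced in dividing cells, whereas myoblasts leave the cell cycle before they form myotubes.

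Pttg1 lies at chr11:43420244-43427463 on the minus strand and Espl1 at chr15:102296254-102324357 on the plus strand (GRCm38). The windows around their start sites are printed because these are the only members that went past 2-fold, and they did so with different patterns. Each window holds the 250 bases before and 50 bases after 1 start site in RefSeq on GRCm38.p6 and reads 5′ to 3′ along the gene, chr11:43425932-43426231 for Pttg1 and chr15:102296043-102296342 for Espl1. Capitals mark TTTGAA, the cell cycle homology region (CHR) known from promoters of late cell cycle genes, and CCAAT, both searched on both strands, so that CCAAT on the opposite strand reads ATTGG. The matches do not overlap each other.
Pttg1: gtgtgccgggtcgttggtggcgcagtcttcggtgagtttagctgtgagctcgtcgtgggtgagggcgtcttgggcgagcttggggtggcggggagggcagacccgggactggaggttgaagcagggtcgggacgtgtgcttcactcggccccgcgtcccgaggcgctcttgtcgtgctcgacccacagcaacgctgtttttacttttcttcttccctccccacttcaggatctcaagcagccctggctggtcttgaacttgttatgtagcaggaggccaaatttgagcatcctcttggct
Espl1: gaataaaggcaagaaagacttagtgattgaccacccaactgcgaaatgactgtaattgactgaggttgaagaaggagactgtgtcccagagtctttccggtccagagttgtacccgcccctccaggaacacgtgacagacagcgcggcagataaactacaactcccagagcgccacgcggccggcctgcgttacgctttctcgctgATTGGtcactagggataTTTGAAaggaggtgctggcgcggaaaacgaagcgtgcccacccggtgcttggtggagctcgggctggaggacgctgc
The Espl1 window held ATTGG at bases 207 to 211 and TTTGAA at bases 224 to 229, counted from 1 at the left end. The Pttg1 window held neither. GENCODE M21 has a further Pttg1 start 270 bases upstream of the one used for this window. The RefSeq gene reaches further upstream still, to base 43427463, beyond the end of the window at base 43426231. The Pttg1 sequence therefore describes only this start, and bases upstream of the window were not searched. Of 32851 windows of the same length, 17.9% held TTTGAA, 37.4% held CCAAT and 6.95% held both. Windows were found for 8 of the 10 members. Espl1 and Pds5b held both motifs, Smc1a, Stag1 and Wapl held CCAAT alone, and Pttg1, Smc3 and Pds5a held neither. Each call describes only the 1 start used for that gene. The outermost GENCODE M21 start of Stag1 lies 45650 bases from the one used, and the Wapl gene begins upstream of its window.

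**Figure D1:**
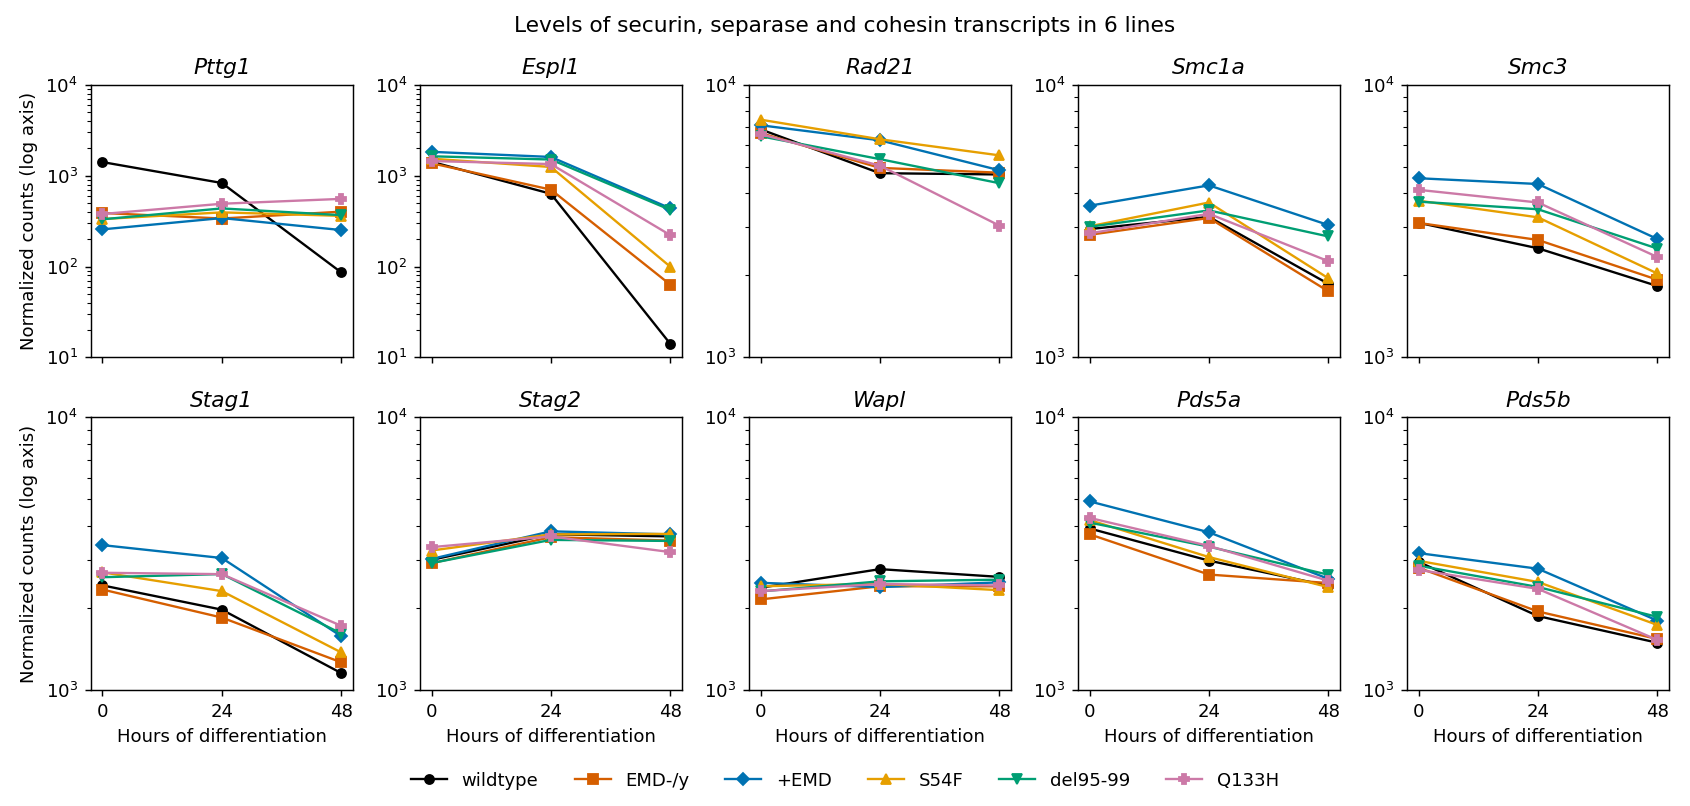
Group means of the 10 genes (normalised counts, log axis, all tables placed on 1 scale) against hours of differentiation in 6 lines, with del95-99 standing for Δ95–99; each point is 1 group mean with no error available, and Pttg1 and Espl1 have a wider axis than the other genes. Wildtype Pttg1 runs from 1415 to 86.3 while the other lines stay between 253 and 557, and Espl1 is lowest at 48 h in every line.

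Pttg1 was the member whose levels separated wildtype from every other line at each hour. To set the 18 groups side by side, tables were placed on 1 scale through the groups they share, and levels below are on that scale. In wildtype the Pttg1 level was 1415 at 0 h, 833 at 24 h and 86.3 at 48 h. In EMD-/y it was 389, 338 and 403, and in +EMD 257, 342 and 253. In S54F it was 334, 396 and 362, in Δ95–99 332, 437 and 369, and in Q133H 380, 492 and 557. The wildtype level was thus the highest of the 6 lines at 0 h and 24 h and the lowest at 48 h, and the 15 groups of the other lines lay within 253 to 557. In bulk RNA, fewer cells with a transcript and less transcript per cell cannot be told apart.

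At 0 h, the Pttg1 means were 1439 to 1470 in wildtype and 261 to 401 in the other lines, each within its own table. The log2 ratio to wildtype was −1.86 in EMD-/y (3.63-fold lower), −2.46 in +EMD (5.51-fold lower), −2.08 in S54F, −2.07 in Δ95–99 and −1.89 in Q133H. The line given wildtype emerin therefore had the lowest Pttg1 mean of the 5. Pttg1 was the only member past 2-fold at 0 h in each of these tables, so 1 of 10 members was past 2-fold where the share of all genes was 9.12% in EMD-/y, 17.3% in +EMD, 12.3% in S54F, 12.7% in Δ95–99 and 15.1% in Q133H. The members as a set were therefore past 2-fold about as often as all genes. All 5 comparisons use the same wildtype samples and are not independent of each other.

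At 24 h, the log2 ratio of Pttg1 to wildtype was −1.29 in EMD-/y, −1.27 in +EMD and −1.06 in S54F. In Δ95–99 and Q133H it was −0.93 and −0.77, short of 2-fold. At 48 h the sign was opposite in every line. The means were 74.4 to 83.3 in wildtype, against 343 in EMD-/y, 224 in +EMD, 316 in S54F, 348 in Δ95–99 and 541 in Q133H. These gave log2 ratios of 2.20, 1.55, 2.06, 2.10 and 2.70, or 2.94-fold higher in +EMD to 6.49-fold higher in Q133H.

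Between hours, Pttg1 in wildtype was 9.57-fold lower at 48 h than at 24 h, with means of 771 and 80.6 (log2 ratio −3.26). Of 13268 genes past the filter on low means, 111 had a ratio this low or lower, Pttg1 included. From 24 to 48 h the other lines gave log2 ratios of 0.26 in EMD-/y, −0.43 in +EMD, −0.12 in S54F, −0.24 in Δ95–99 and 0.17 in Q133H, so no line other than wildtype was past 2-fold. The change in a line minus that in wildtype was 3.51, 2.83, 3.14, 3.02 and 3.43 on the log2 scale, in the same order. This is the pattern on which the set was selected. As background to it, 1618 genes were past 2-fold lower in wildtype from 24 to 48 h, of which 1599 were listed for all 6 lines, and 263 of those were past 2-fold lower in no other line. Among the 263, 2 had a wildtype ratio as low as that of Pttg1, namely Pttg1 and Tssc4, which was named after its values were seen. The set was selected on this change of Pttg1, so nothing is read from these counts or from its rank among all genes. From 0 to 24 h Pttg1 had log2 ratios of −0.76 in wildtype and −0.20 in EMD-/y, and of 0.41, 0.24, 0.42 and 0.39 in +EMD, S54F, Δ95–99 and Q133H, all under 2-fold.

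Espl1, which encodes separase, began at like levels in all lines and was lower at 48 h in each, to very different depths. Its level at 0 h was 1426 in wildtype, 1374 in EMD-/y, 1835 in +EMD, 1542 in S54F, 1639 in Δ95–99 and 1452 in Q133H. At 24 h wildtype and EMD-/y stood at 633 and 704, whereas +EMD, S54F, Δ95–99 and Q133H stood at 1611, 1249, 1510 and 1346. At 48 h the order from lowest to highest was wildtype at 14.1, EMD-/y at 63.4, S54F at 99.9, Q133H at 222, Δ95–99 at 422 and +EMD at 439. Whether neighbours in this order differ beyond their spread could not be assessed from group means. The wildtype mean at 48 h was only 12.1 to 13.7 normalised counts in the tables against other lines. Folds against it therefore rest on few reads. For Espl1 at 48 h, tables sharing a group differed by 0.01 in +EMD to 0.16 in Q133H on the log2 scale. For the other 9 genes they differed by at most 0.03. These differences come from separate normalisation of the same samples and do not measure the spread between replicates.

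Against wildtype, the log2 ratio of Espl1 at 0 h was −0.05 to 0.36. At 24 h it was 0.15 in EMD-/y and 0.98 in S54F, and it was past 2-fold in +EMD (1.35), Δ95–99 (1.25) and Q133H (1.08). At 48 h it was past 2-fold in all 5 lines, at 2.04 in EMD-/y (4.12-fold higher), 5.00 in +EMD (32.0-fold higher), 2.78 in S54F, 4.91 in Δ95–99 and 3.89 in Q133H. Espl1 and Pttg1 thus made up every count of members past 2-fold against wildtype. At 24 h that count was 1 of 10 in EMD-/y, S54F, Δ95–99 and Q133H and 2 of 10 in +EMD, where the share of all genes was 7.68%, 12.5%, 21.3%, 24.6% and 20.1%. At 48 h it was 2 of 10 in each line, where the share of all genes was 7.98% in EMD-/y, 18.8% in +EMD, 11.1% in S54F, 22.5% in Δ95–99 and 33.9% in Q133H. Each count at 48 h holds Pttg1 against the wildtype mean at 48 h. The counts at 24 h in EMD-/y, +EMD and S54F hold it against the wildtype mean at 24 h. The set was selected on the change between these wildtype means, so nothing is read from these counts.

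**Figure D2:**
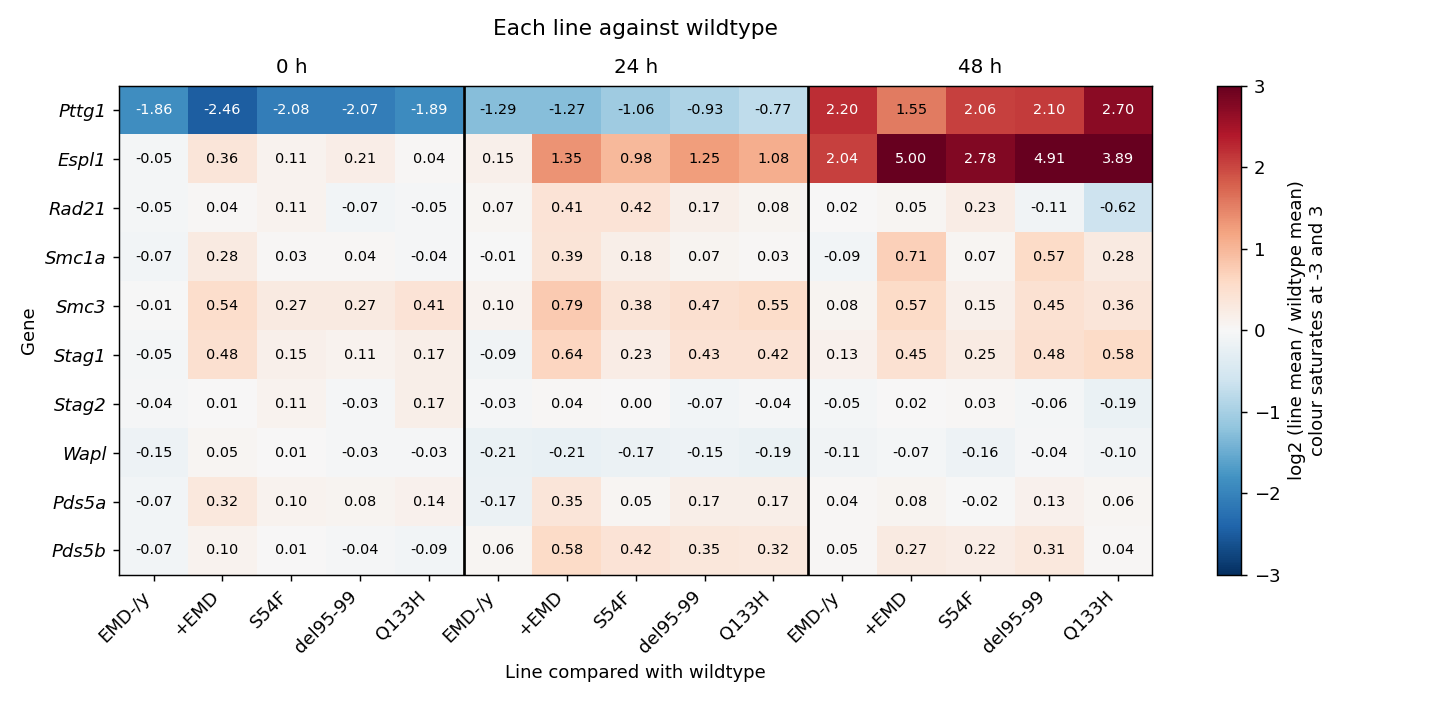
Log2 ratio of the mean in each line to the wildtype mean for the 10 genes (rows) at 0, 24 and 48 h (blocks of columns); colour runs from blue (lower than wildtype) to red (higher), each cell prints its value, and del95-99 stands for Δ95–99. Pttg1 goes from −2.46 to −1.86 at 0 h to 1.55 to 2.70 at 48 h, Espl1 reaches 5.00 in +EMD at 48 h, and the other 8 genes stay between −0.62 and 0.79.

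Between hours, Espl1 from 24 to 48 h had log2 ratios of −5.47 in wildtype (44.4-fold lower), −3.40 in EMD-/y, −1.87 in +EMD, −3.62 in S54F, −1.82 in Δ95–99 and −2.51 in Q133H. The genes with a ratio as low as that of Espl1, itself included, numbered 4 of 13268 in wildtype, 45 of 13349 in EMD-/y, 107 of 13301 in +EMD, 39 of 13336 in S54F, 92 of 13363 in Δ95–99 and 7 of 13119 in Q133H. From 0 to 24 h the ratio was −1.17 in wildtype, −0.96 in EMD-/y and −0.31 to −0.09 in the 4 transduced lines. Members past 2-fold from 0 to 24 h were 1 of 10 in wildtype (Espl1) and 0 of 10 in the other lines, where the share of all genes was 23.3% in wildtype, 21.9% in EMD-/y, 17.8% in +EMD, 17.1% in S54F, 14.5% in Δ95–99 and 12.6% in Q133H. From 24 to 48 h they were 2 of 10 in wildtype (Pttg1 and Espl1), where the share of all genes was 20.3%, and 1 of 10 (Espl1) in each other line, where it was 19.2% in EMD-/y, 21.1% in +EMD, 21% in S54F, 14.7% in Δ95–99 and 11.1% in Q133H. The wildtype count holds Pttg1, on which the set was selected, so nothing is read from it.

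Levels of different genes can be compared only per length, here as normalised counts per kilobase of the gene length in the tables. Per kilobase, Espl1 was 0.114 times Pttg1 in wildtype at 0 h and 0.400 to 0.809 times in the other lines. At 24 h this quotient was 0.0862 in wildtype and 0.236 to 0.533 in the others. At 48 h it was 0.0186 in wildtype and 0.0178 in EMD-/y, 0.0313 in S54F, 0.0453 in Q133H, 0.130 in Δ95–99 and 0.197 in +EMD. Securin transcript therefore exceeded separase transcript per length in all 18 groups. Wildtype and EMD-/y reached nearly the same quotient at 48 h from levels of both genes that were several times higher in EMD-/y.

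The ring subunits were abundant in every line and none went past 2-fold in any of the 27 tables. For the 8 genes other than Pttg1 and Espl1, the 120 ratios to wildtype ran from −0.62 to 0.79 and the 96 ratios between hours from −0.95 to 0.33. Rad21, the kleisin cut by separase, had the highest level per kilobase of the 10 genes by its median over the groups (1495). Its level was 6873, 4744 and 4693 in wildtype at 0, 24 and 48 h, and 6661, 4961 and 4765 in EMD-/y. In +EMD it was 7113, 6263 and 4865, in S54F 7458, 6319 and 5516, in Δ95–99 6484, 5342 and 4360, and in Q133H 6601, 5056 and 3048. All 12 ratios of Rad21 to the previous hour were below 0, from −0.54 to −0.19 for 0 to 24 h and from −0.73 in Q133H to −0.02 in wildtype for 24 to 48 h. The lowest ratio to wildtype of any of the 8 genes was that of Rad21 in Q133H at 48 h, −0.62.

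Smc1a and Smc3, the ATPase arms of the ring, differed from 0 to 24 h. Smc1a was higher at 24 h than at 0 h in all 6 lines (log2 ratio 0.14 to 0.28) and lower at 48 h than at 24 h in all 6, at −0.82 in wildtype, −0.89 in EMD-/y, −0.92 in S54F, −0.58 in Q133H, −0.48 in +EMD and −0.31 in Δ95–99. Its level at 48 h was 1863 in wildtype, 1750 in EMD-/y and 1953 in S54F, and 2256 in Q133H, 2780 in Δ95–99 and 3062 in +EMD. Smc3 had 12 of 12 ratios to the previous hour below 0, from −0.32 to −0.08 for 0 to 24 h and from −0.68 to −0.46 for 24 to 48 h. Its wildtype level was 3121, 2515 and 1829, and the +EMD level was 4546, 4330 and 2722. Smc3 was above wildtype in 14 of 15 comparisons, the exception being EMD-/y at 0 h (−0.01), and its ratio of 0.79 in +EMD at 24 h was the highest of any of the 8 genes. These differences are under 2-fold and have no replicate check.

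The alternative subunits Stag1 and Stag2 ran apart over time. Stag1 levels at 0, 24 and 48 h were 2419, 1970 and 1153 in wildtype, 2336, 1843 and 1263 in EMD-/y, and 3400, 3048 and 1574 in +EMD. In S54F they were 2701, 2304 and 1373, in Δ95–99 2592, 2662 and 1611, and in Q133H 2691, 2660 and 1719. From 24 to 48 h all 6 ratios of Stag1 were below 0, from −0.95 in +EMD to −0.55 in EMD-/y. Stag2 was 2918 to 3342 at 0 h, 3553 to 3820 at 24 h and 3205 to 3738 at 48 h over the 6 lines. Its ratios were 0.15 to 0.33 from 0 to 24 h and −0.19 to 0.01 from 24 to 48 h, and its 15 ratios to wildtype ran only from −0.19 to 0.17. Per kilobase, Stag2 made up 56.6% of Stag1 plus Stag2 in wildtype at 0 h, 66.5% at 24 h and 76.9% at 48 h. In EMD-/y these shares were 56.8%, 67.5% and 74.6%, and in S54F 55.8%, 62.9% and 74.1%. In +EMD they were 48.3%, 56.9% and 71.3%, in Δ95–99 54.2%, 58.4% and 69.7%, and in Q133H 56.6%, 59.1% and 66.2%. The share was therefore higher at each later hour in all 6 lines, and +EMD at 0 h was the only group in which Stag1 was the more abundant of the pair.

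**Figure D3:**
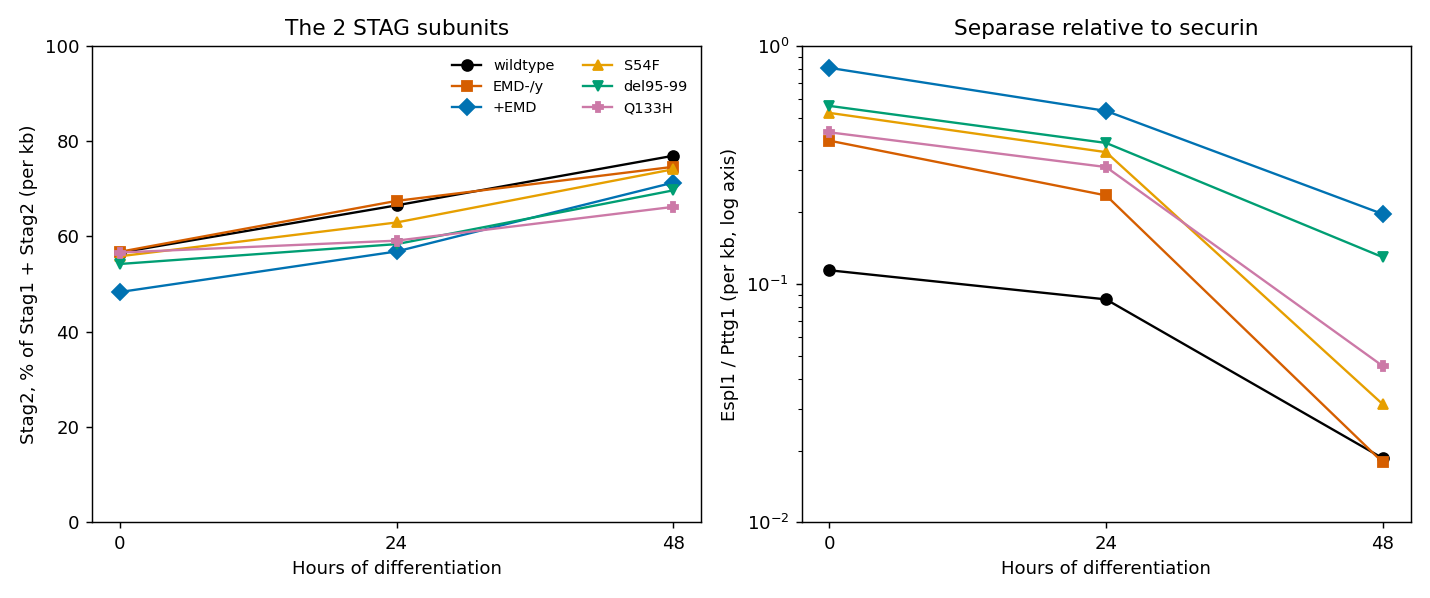
Left, Stag2 as a percentage of Stag1 plus Stag2; right, Espl1 divided by Pttg1 on a log axis; both use levels per kilobase and are drawn against hours of differentiation for 6 lines, 1 point per group mean with no error available, and del95-99 stands for Δ95–99. The Stag2 share rises from 48.3% to 56.8% at 0 h to 66.2% to 76.9% at 48 h, and wildtype has the lowest quotient of Espl1 to Pttg1 at 0 h (0.114) and 24 h (0.0862).

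Among the regulators, Wapl, which opens the ring, was as steady as Stag2: its level was 2149 to 2472 at 0 h, 2384 to 2775 at 24 h and 2323 to 2600 at 48 h. All its ratios between hours lay from −0.10 to 0.22. It was below wildtype in 5 of 5 lines at 24 h (−0.21 to −0.15) and at 48 h (−0.16 to −0.04). Pds5a and Pds5b, the paired ring-binding proteins, were both lower at each later hour in all 6 lines. Pds5a ran from 3914 to 2982 to 2410 in wildtype and from 4920 to 3789 to 2558 in +EMD. Pds5b ran from 2952 to 1867 to 1490 in wildtype and from 3178 to 2785 to 1797 in +EMD. Against wildtype, Pds5b was higher in 5 of 5 lines at 24 h, from 0.06 in EMD-/y to 0.58 in +EMD, and from 0.04 to 0.31 at 48 h. For Pds5a the 15 ratios to wildtype ran from −0.17 to 0.35.

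Taking the 10 genes as a set, the median log2 ratio from 24 to 48 h was −0.39 in wildtype, −0.22 in EMD-/y, −0.52 in +EMD, −0.44 in S54F, −0.32 in Δ95–99 and −0.60 in Q133H, where the median over all genes lay from −0.01 to 0.02. In wildtype 10 of 10 members were below 0, and in each other line 9 of 10. The member above 0 was Pttg1 in EMD-/y and Q133H, Wapl in +EMD and Δ95–99, and Stag2 in S54F. The medians and counts from 24 to 48 h hold Pttg1, on whose change the set was selected, so nothing is read from them. From 0 to 24 h the median was −0.36 in wildtype, −0.28 in EMD-/y, −0.12 in +EMD, −0.22 in S54F, −0.01 in Δ95–99 and −0.04 in Q133H. Where each group's means were divided by their sum instead, ratios from 24 to 48 h moved down by 0.02 in Q133H to 0.27 in S54F. Smc1a then passed 2-fold in wildtype (−1.01), EMD-/y (−1.13) and S54F (−1.19), and Stag1 in +EMD (−1.19) and S54F (−1.01).

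The genes whose levels followed Espl1 most closely over the 18 groups were Kif11 and Cdca3 (both Pearson r 0.997 on log2 levels), Kif14 (0.996), Kif2c and Troap (both 0.995). Kif11 is a motor of the mitotic spindle, Cdca3 an adaptor used at mitotic entry, Kif14 a kinesin of cytokinesis and Kif2c a kinesin that shortens microtubules. Of 12567 named genes, 1223 had an r of at least 0.8 with Espl1 and 181 an r of at least 0.95. The 5 named for Espl1 also depended on the measure: by Spearman correlation the closest were Bub1b and Knstrn (both 0.994). For Pttg1 the closest were Arf4 (0.789), Ephb6 (0.731), Tmem260 (0.719), Fhl2 (0.717) and Sh3bgrl (0.716), and no named gene reached 0.8 by this measure. These 5 depended on it: by Spearman correlation the closest was Slc39a13 (0.835), and by Pearson correlation over the groups other than wildtype it was Orai3 (0.954), followed by Lipa (0.940) and Ppcs (0.939). Between members r was 0.47 for Pttg1 with Espl1, 0.92 for Espl1 with Stag1, 0.97 for Smc3 with Stag1, 0.95 for Pds5a with Pds5b and −0.40 for Stag1 with Stag2. These correlations describe 18 group means that share lines, hours and normalisation. Those of Pttg1 over all 18 groups hold the wildtype change on which the set was selected, so nothing is read from them.

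Several partners of cohesin with known roles in S phase or mitosis were past 2-fold lower at 48 h in every line, as Espl1 was. From 24 to 48 h, 5 of the 10 genes for cohesin loading, acetylation and protection were past 2-fold lower in each of the 6 lines, and 0 higher, where 12.2% of all genes were past 2-fold lower in wildtype, 11.4% in EMD-/y, 9.85% in +EMD, 11.4% in S54F, 5.49% in Δ95–99 and 4.54% in Q133H. The 5 were the same genes in every line: the acetyltransferase Esco2, Cdca5 (sororin) and the kinase Haspin, and the centromere protectors Sgo1 and Sgo2a, named because they make up the count. Esco2, which acetylates Smc3 during replication, had ratios of −5.51 in wildtype, −3.48 in EMD-/y, −2.05 in +EMD, −4.01 in S54F, −1.96 in Δ95–99 and −2.34 in Q133H. Sgo1 had −4.42, −3.09, −1.89, −3.60, −1.86 and −1.91 in the same order. The loaders Nipbl and Mau2, the acetyltransferase Esco1, the deacetylase Hdac8 and Ctcf, which stops cohesin at loop ends, stayed under 2-fold.

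The anaphase-promoting complex, the ubiquitin ligase that acts on securin, had its activator Cdc20 and its inhibitor Fbxo5 past 2-fold lower in every line. From 24 to 48 h, 4 of its 19 genes were past 2-fold lower in wildtype (12.2% of all genes) and EMD-/y (11.4%), 5 in S54F (11.4%), and 3 in +EMD (9.85%), Δ95–99 (5.49%) and Q133H (4.54%), with 0 higher. The median over the 19 genes was −0.22, −0.08, −0.08, −0.17, −0.24 and −0.26 in the same order. Cdc20, which acts at metaphase, had ratios of −4.44 in wildtype, −3.37 in EMD-/y, −2.04 in +EMD, −3.60 in S54F, −2.02 in Δ95–99 and −1.74 in Q133H. Fbxo5 had −4.35, −3.12, −2.02, −3.58, −1.79 and −2.35. Of the 11 genes of the spindle checkpoint and its kinases, 9 were past 2-fold lower in every line, with a median of −4.55 in wildtype and −1.64 to −3.27 in the others. Ccnb2 and Ccnb1, the mitotic cyclins, had −5.21 and −5.17 in wildtype, against −1.47 and −1.74 in +EMD. Of the 4 meiotic cohesin genes, at most 2 passed the filter on low means in any table, and Stag3 went from 13.8 to 6.29 in wildtype.

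Proliferation markers were lower at 48 h than at 24 h in every line, as Espl1 was. Pttg1 was past 2-fold lower in wildtype alone, the pattern on which the set was selected, so nothing is read from this contrast. Mki67 had ratios from 24 to 48 h of −5.74 in wildtype, −3.35 in EMD-/y, −1.85 in +EMD, −3.91 in S54F, −1.71 in Δ95–99 and −2.60 in Q133H, and Ccna2 −5.34, −3.47, −1.89, −3.75, −2.03 and −2.21. Of the 8 markers, 8 were past 2-fold lower in wildtype (12.2% of all genes), EMD-/y (11.4%) and S54F (11.4%). The count was 7 in +EMD (9.85%) and Q133H (4.54%) and 5 in Δ95–99 (5.49%). At 48 h, 3 of the 8 were past 2-fold above wildtype in EMD-/y (5.02% of all genes) and S54F (6.1%), 6 in Q133H (18.2%), 7 in +EMD (10.9%) and 8 in Δ95–99 (13.4%), with a median log2 ratio of 0.57, 0.50, 1.45, 2.90 and 2.59. The Mki67 level ran from 80.4 to 14206 over the 18 groups. Their part in the differences of Espl1 between lines was not tested.

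**Figure D4:**
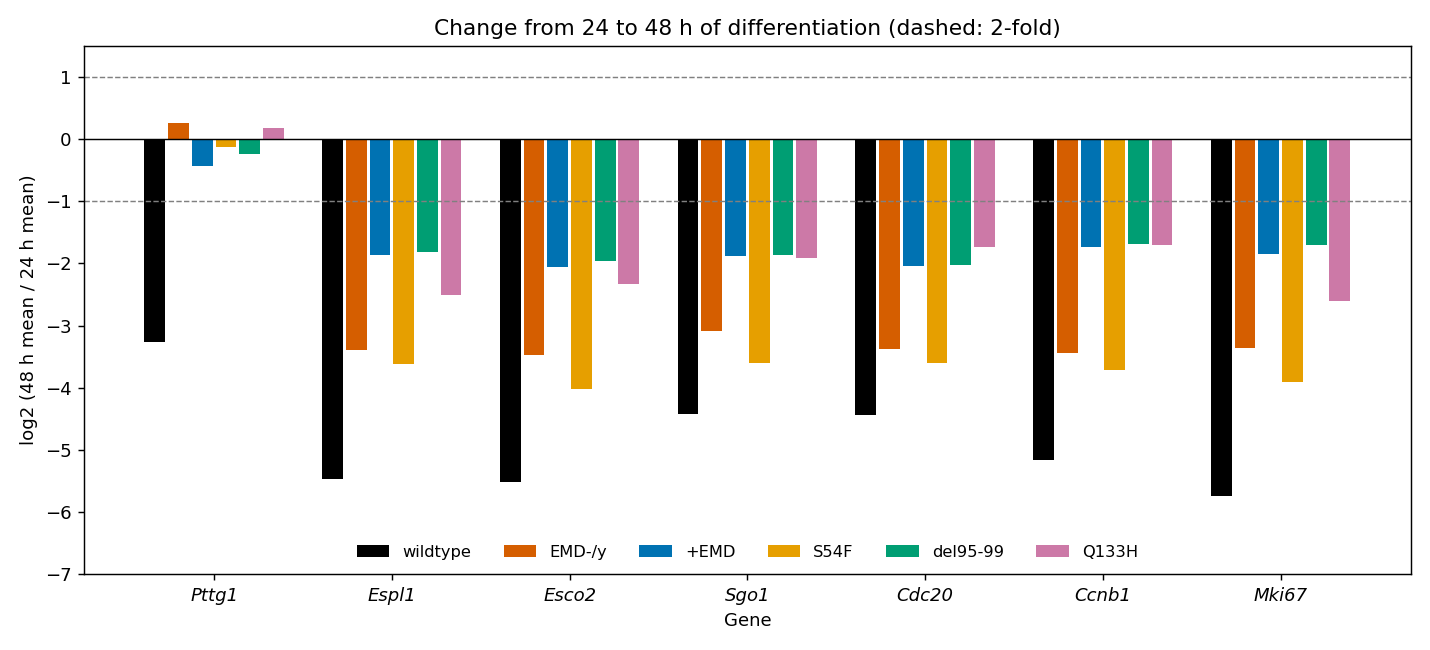
Log2 ratio of the 48 h mean to the 24 h mean (bars, starting at 0) for Pttg1, Espl1 and 5 genes of the pathway and proliferation lists in 6 lines, within the table of each line; dashed lines mark 2-fold, no error was available, and del95-99 stands for Δ95–99. Pttg1 is past 2-fold only in wildtype (−3.26), the pattern on which the set was selected. The other 6 genes are past 2-fold lower in all 6 lines, most in wildtype.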

How the data were processed

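RNA from 54 samples (18 groups of 3 labelled replicates) was sequenced as poly-A libraries. The labels state technical replicates of each of 2 biological replicates, without saying which sample is which. Per the labels and the study's methods, reads were filtered with SOAPnuke, mapped to mm10 with HISAT2 and compared in pairs of groups with DESeq2 (versions not given in the sources used here). The deposited tables hold, per gene, the length and the authors' mean signal of each of 2 groups, that is counts divided by size factors made within that table. The authors' fold change, p-value and adjusted p-value columns, with their calls of direction, were not used.

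No values per sample were used here (0 columns), so no test, SD or n accompanies any mean. Planned count tests gave way to log2 ratios of 2 means within a table, called at 2-fold where the higher mean was at least 10. Tables list 17215 to 17876 genes. Of 19653 GeneIDs, 17824 matched a RefSeq symbol (GRCm38.p6), 1798 were genes predicted by the sequencing provider and 31 had neither. For levels on 1 scale, each table was shifted by a constant set by the medians over 8734 genes with means above 100. Ratios stayed within tables.

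Named were the 10 members, Emd, the 5 named genes most like Pttg1 and Espl1 (mean of at least 10, no group at 0), and from each pathway list up to 2 genes per direction with the largest wildtype ratio past 2-fold from 24 to 48 h. The members and lists were chosen with earlier results of these data known. No other GENCODE M21 gene aligned to a member's transcript (minimap2 2.31-r1302) over at least 200 bases at 97% identity or more. Python 3.11.15, pandas 2.3.3, numpy 2.4.6 and matplotlib 3.10.9 were used. Alternatives were a 1.5-fold threshold, no filter or a mean of at least 50, a pseudocount of 1, median centring, scaling to the sum, and predicted genes left out.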

Additional observations from a re-analysis of the deposited data

How the results depend on the processing

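No paired analysis was possible because the tables hold 1 mean per group; for the same reason leaving out each replicate was not run, and depth per library is unknown. The counts of members past 2-fold stayed within 1.5 times in all 27 tables without the filter on low means, with a mean of at least 50, with a pseudocount of 1 and with median centring, and no member's ratio past 2-fold changed sign. With a 1.5-fold threshold the count changed in 14 tables, to 3 in +EMD and Q133H against wildtype at 48 h, and by over 1.5 times in 12, to 4 in +EMD and 2 in S54F, Δ95–99 and Q133H against wildtype at 24 h, to 3 in wildtype and 1 in EMD-/y from 0 to 24 h, and from 24 to 48 h to 4 in wildtype, +EMD and S54F, 2 in EMD-/y and Δ95–99 and 5 in Q133H. Scaled to the sum, it changed in 5 tables, to 2 in S54F against wildtype at 24 h and, from 24 to 48 h, to 2 in EMD-/y and +EMD and 3 in S54F and wildtype. The change of Pttg1 in a line minus that in wildtype, 24 to 48 h, stayed past 2-fold for all 5 lines under each scaling, the pseudocount and the route through the tables against wildtype (2.78 in +EMD to 3.60 in Q133H, both scaled to the sum). Median centring moved a ratio by at most 0.02, and scaling to the sum moved one from 24 to 48 h by at most 0.27. Neither could bring differences of this size under 2-fold. The set was also selected on this change, so nothing is read from its staying past 2-fold. Of the 5 genes most like Pttg1, 0 were among the 5 by Spearman correlation and 0 without the wildtype groups; for Espl1 0 and 2. Without predicted genes the share of all genes past 2-fold stayed within 1.5 times in all 27 tables.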

Other observations

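Condensin and Smc5/6 are further complexes built on SMC proteins. From 24 to 48 h, 7 of the 8 condensin genes, which compact mitotic chromosomes, were past 2-fold lower in wildtype, EMD-/y, +EMD, S54F and Q133H, and 6 in Δ95–99, where the share of all genes past 2-fold lower was 12.2%, 11.4%, 9.85%, 11.4%, 4.54% and 5.49% in that order. Ncapg had log2 ratios of −3.72 in wildtype, −3.02 in EMD-/y, −1.68 in +EMD, −3.51 in S54F, −1.78 in Δ95–99 and −1.86 in Q133H, and Smc2 −2.98, −2.57, −1.44, −2.90, −1.24 and −1.49. Of the 6 genes of Smc5/6, which acts in DNA repair, 0 were past 2-fold in 5 of the 6 lines; in +EMD Nsmce4a was lower and Nsmce3 higher, both named because they make up the count. At 48 h, condensin genes past 2-fold above wildtype numbered 0 in EMD-/y (5.02% of all genes) and S54F (6.1%), 4 in Q133H (18.2%) and 6 in +EMD (10.9%) and Δ95–99 (13.4%).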
